A study of Mus musculus with 8 samples.

Results

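The transcripts described here encode the kinases, cyclins and spindle regulators that carry a cell through mitosis, measured in mouse double positive thymocytes. The members were 10 named genes, Aurka, Aurkb, Plk1, Bub1, Bub1b, Ccnb1, Ccnb2, Cdc20, Cdk1 and Top2a, and every probe set that the platform annotation gives to one of these symbols alone was taken. That gave 12 probe sets for 8 of the genes, of 12422 probe sets in all that were not array controls and 8251 genes that a probe set named alone. Plk1 and Bub1 had 3 probe sets each, and Bub1b and Ccnb1 had no probe set of their own in the annotation used, so no signal is given for them.

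Total RNA was hybridised to 8 arrays in 4 groups of 2, named in the titles as control, overnight control, Valpha2 and Vbeta5, in a series on engagement of the T cell receptor with antibodies. Valpha2 and Vbeta5 are variable segments of the receptor's alpha and beta chains. The labels give no mouse strain, genotype, age, antibody clone, dose or time, and none says how the control differs from the overnight control beyond that word. Each group has an array numbered 1 and an array numbered 2. Nothing says that these came from separate animals or cultures, so p-values measure the spread between these arrays, which may be technical.

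Entry into mitosis is driven by the kinase Cdk1 bound to a B-type cyclin, and exit follows when the anaphase-promoting complex, activated by Cdc20, marks cyclin B for destruction. The Aurora kinases and Plk1 build and correct the spindle, Bub1 and Bub1b hold anaphase until chromosomes are attached, and Top2a untangles DNA so that sister chromatids can part. These transcripts accumulate late in the cell cycle and are scarce in resting cells, and in the thymus a cycling blast stage precedes the small, resting double positive cell.

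Several of these genes are known to be kept silent in resting cells through a promoter element called the cell cycle genes homology region, with core TTTGAA, that is read together with nearby CCAAT boxes bound by NF-Y. The RefSeq promoter table (GRCm38.p6, from 250 bases before to 50 after the annotated start) held 9 of the 10 genes, all but Aurkb. TTTGAA, searched on both strands, was found in 7 of these 9 windows, against 17.9% of all 32851 windows of that length. CCAAT was found on either strand in 9 of 9, against 37.4% of all windows. Both were found in 7 of 9, against 6.95% of all windows. Bub1 had the variant TTCGAA, which occurred in 1.56% of all windows and in 3 of the 9, and Ccnb1 had CCAAT alone. A match is a run of letters and not a measured site. The 4 windows with both motifs and the TTTGAA closest to the start are shown, since their genes are among those measured below, with TTTGAA and CCAAT, or their reverse complements TTCAAA and ATTGG, in capitals:
Ccnb2, chr9:70421505-70421804, minus strand: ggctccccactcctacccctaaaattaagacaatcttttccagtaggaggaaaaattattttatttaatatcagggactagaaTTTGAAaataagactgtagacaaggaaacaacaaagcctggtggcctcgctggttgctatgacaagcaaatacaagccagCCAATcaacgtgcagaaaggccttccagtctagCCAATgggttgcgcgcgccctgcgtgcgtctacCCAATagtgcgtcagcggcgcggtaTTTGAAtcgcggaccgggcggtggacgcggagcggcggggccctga
Cdk1, chr10:69352863-69353162, minus strand: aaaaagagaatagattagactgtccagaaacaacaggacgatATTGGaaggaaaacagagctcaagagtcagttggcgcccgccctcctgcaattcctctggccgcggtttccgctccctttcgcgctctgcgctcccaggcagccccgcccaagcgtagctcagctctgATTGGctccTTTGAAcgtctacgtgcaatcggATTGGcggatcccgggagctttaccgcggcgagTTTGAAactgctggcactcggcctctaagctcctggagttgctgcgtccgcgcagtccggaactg
Cdc20, chr4:118437294-118437593, minus strand: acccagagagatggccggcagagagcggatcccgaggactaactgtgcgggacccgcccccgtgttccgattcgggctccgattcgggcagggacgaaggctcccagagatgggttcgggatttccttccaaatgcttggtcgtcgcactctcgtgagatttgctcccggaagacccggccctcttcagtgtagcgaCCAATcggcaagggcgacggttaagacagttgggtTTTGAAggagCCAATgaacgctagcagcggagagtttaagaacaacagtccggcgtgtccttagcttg
Top2a, chr11:99024140-99024439, minus strand: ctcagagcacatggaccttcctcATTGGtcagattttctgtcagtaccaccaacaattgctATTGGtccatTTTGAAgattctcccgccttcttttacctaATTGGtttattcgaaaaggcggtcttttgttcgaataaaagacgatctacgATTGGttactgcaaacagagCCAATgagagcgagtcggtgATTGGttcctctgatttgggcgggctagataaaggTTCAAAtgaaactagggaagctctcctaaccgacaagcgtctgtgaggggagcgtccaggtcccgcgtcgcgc

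In these windows the TTTGAA nearest the start began at base 5 after it in Ccnb2 and at -15 in Cdk1, -18 in Cdc20 and -23 in Top2a, the last on the reverse strand. The CCAAT matches of Ccnb2 began at -87, -54 and -21, and those of Cdc20 at -53 and -8. Top2a had 6 such matches and Cdk1 had 3.

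**Figure D1:**
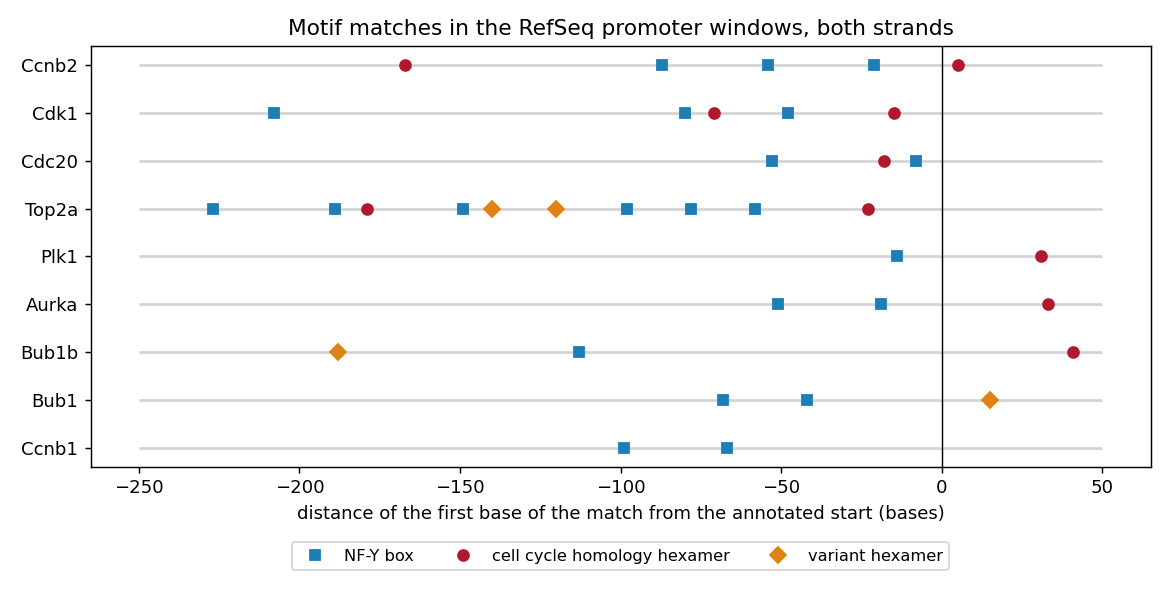
Position of motif matches in the promoter windows of the 9 member genes in the RefSeq table, as the distance in bases of the match's first base from the annotated start. Squares mark CCAAT, circles TTTGAA and diamonds its variant; squares stand in all 9 rows and circles in 7.

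The arrays had nearly the same trimmed mean signal (250.14 to 250.16), while the median signal ranged from 73.65 to 110.25. The control probe sets for Gapdh, which read both ends of its transcript, gave an excess of 3' over 5' signal on 3 arrays, by 1.72 (log2) on array 1 of Valpha2, 0.95 on that of the overnight control and 0.48 on that of Vbeta5, where the other 5 arrays lay between -0.28 and -0.09. Among markers of the labelled cell type, Cd4 was at 680.1 to 3591 and Cd8a at 2143 to 8257 across the arrays. Rag1 was at 1840 to 14715 and Cd3e at 2446 to 5700. Rag2 was at 133 and 21.2 with Vbeta5, against 516.3 to 1185 on the other arrays, and Ptcra at 56.3 to 181.8 across the arrays. The summed signal of 11 measured double positive markers lay between 48278 and 52486 in control, between 62012 and 62510 in the overnight control, between 52111 and 64803 with Valpha2 and between 21289 and 34302 with Vbeta5. In Cd3d, Cd3e and Cd3g the Vbeta5 arrays overlapped the others. The remaining markers were lower on both Vbeta5 arrays than on every other array.

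The mitotic transcripts were high on the control arrays and low on all 6 others. In 9 of the 10 tested probe sets both control arrays lay above every other array, a pattern seen in 6.67% of all 8282 probe sets tested. The exception was a Plk1 probe set. The whole RNA of many cells was measured, so fewer cells in mitosis and less of each transcript per cell cannot be told apart.

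Cdk1, the kinase that starts mitosis, had a signal (in the deposited units, as for all signals below) of 868.7 and 1011.3 on control arrays 1 and 2. It was 196 and 303.7 on the overnight control arrays, 166.8 and 228.5 with Valpha2, and 80.2 and 297.4 with Vbeta5. The lowest control value was 2.86 times the highest of the other 6. On the log2(signal + 16.6) scale used for every test, Cdk1 fell by 2.45 ± 0.48 (SE) from control to Vbeta5 (limma adjusted p = 0.0325), a 5.47-fold drop. With Valpha2 it differed from control by -2.17 and in the overnight control by -1.87, where the adjusted p-values of 0.122 and 0.178 did not pass 0.05. The control mean was 940 ± 101 (SD, n = 2) and the Vbeta5 mean 189 ± 154 (SD, n = 2), the widest relative spread of the 4 groups.

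Its partner cyclin Ccnb2 gave 2352.7 and 2723.6 in control, 1182.9 and 908.1 in the overnight control, 1009 and 1199.6 with Valpha2, and 706.8 and 1119.2 with Vbeta5. No array outside the control group reached 1200. Ccnb2 fell by 1.49 ± 0.26 from control to Vbeta5 (limma adjusted p = 0.0209). Against the same control arrays it differed by -1.27 in the overnight control (adjusted p = 0.097) and by -1.19 with Valpha2 (adjusted p = 0.124).

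Plk1, which acts in mitotic entry, at the spindle and in cytokinesis, was read by 3 probe sets that did not give the same picture. Probe set 101350_g_at had 786.3 and 719 in control, 287.2 and 285.1 in the overnight control, 171.6 and 246.2 with Valpha2, and 197.5 and 315.8 with Vbeta5. Probe set 93099_f_at had 482.3 and 464.5 in control and 69.1 to 131.2 on the other 6 arrays. In both, the control arrays stood apart from all the rest. With 161292_f_at the groups overlapped: it had 335.5 and 312.4 in control, 379.4 and 184.4 in the overnight control, 298.7 and 170.2 with Valpha2, and 331.5 and 311.4 with Vbeta5. The first fell by 1.53 ± 0.30 with Vbeta5 (limma adjusted p = 0.0333) and fell by 1.79 ± 0.30 with Valpha2 (limma adjusted p = 0.0402), the only member call in the Valpha2 comparison. The second fell by 2.18 ± 0.38 with Vbeta5 (limma adjusted p = 0.0205) and differed by -2.07 with Valpha2 (adjusted p = 0.0604). The third differed from control by -0.01 with Vbeta5, -0.49 with Valpha2 and -0.27 in the overnight control, with adjusted p-values of 0.996, 0.854 and 0.835. It correlated at r = 0.15 over the 8 arrays with the mean profile of the other members, against 0.95 and 0.98 for the first and the second, as a description of 8 points in 4 groups.

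Aurka, the Aurora kinase of centrosomes and spindle poles, had signals of 273.5 and 346.2 in control, 97 and 140.6 in the overnight control, 106.9 and 112.5 with Valpha2, and 55.8 and 121.7 with Vbeta5. Aurkb, the kinase of the chromosomal passenger complex that corrects faulty attachments, had 500 and 356.8 in control, 74.5 and 39.4 in the overnight control, 42.7 and 120.6 with Valpha2, and 35.1 and 109.1 with Vbeta5. In both genes the control arrays were separate from the rest, and the other 3 groups overlapped each other. Neither passed the test in any comparison. Against control, Aurka was lower by factors of 2.43 in the overnight control, 2.57 with Valpha2 and 3.24 with Vbeta5 (limma adjusted p = 0.331, 0.308 and 0.0745). For Aurkb the factors were 6.15, 4.87 and 5.45 (limma adjusted p = 0.101, 0.161 and 0.0624).

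Bub1, a kinase of the spindle assembly checkpoint, was readable in 1 of its 3 probe sets. Probe set 104097_at had 202 and 276.8 in control, 20.9 and 42.1 in the overnight control, 90.1 and 43.6 with Valpha2, and 46.9 and 61.7 with Vbeta5. Both overnight control arrays lay below all 6 others. Bub1 was 5.40-fold lower than control there (limma adjusted p = 0.0805), 3.16-fold lower with Valpha2 (adjusted p = 0.273) and 3.59-fold lower with Vbeta5 (adjusted p = 0.098). The other probe sets, 162264_s_at and 97095_at, lay below the offset of 16.6 on 7 of 8 arrays each, at 2.8 to 17.7 and 1.6 to 16.6, and the filter on dim probe sets left both out of the test.

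Cdc20, which switches on the anaphase-promoting complex, had 1486.7 and 1357.3 in control, 618.2 and 597.1 in the overnight control, 540.2 and 766.4 with Valpha2, and 499.9 and 619.2 with Vbeta5. It fell by 1.33 ± 0.24 from control to Vbeta5 (limma adjusted p = 0.0237), a 2.51-fold drop, and differed by -1.20 in the overnight control (adjusted p = 0.0947) and -1.12 with Valpha2 (adjusted p = 0.112). Of the 9 probe sets that separated control from the rest, Cdc20 had the smallest fold in each of the 3 comparisons with control.

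Top2a, the topoisomerase that decatenates replicated chromosomes, had the largest difference among the members on this log2 scale in each comparison with control. In the overnight control the lead was small, -2.64 against -2.62 for Aurkb, with SEs of 0.61 and 0.55. The signal of Top2a was 1090.2 and 1128.4 in control, 140.3 and 192.4 in the overnight control, 109.4 and 124.3 with Valpha2, and 16.4 and 156.8 with Vbeta5. The lowest control value was 5.67 times the highest of the other arrays. From control to Vbeta5 it fell by 3.90 ± 0.61 (limma adjusted p = 0.0141), a 14.9-fold drop on this scale, and it differed by -3.08 with Valpha2 (adjusted p = 0.0711) and -2.64 in the overnight control (adjusted p = 0.127). The value of 16.4 on Vbeta5 array 1 lay under the offset, so the size of the Vbeta5 difference depends on the offset. The control mean was 1109 ± 27.0 (SD, n = 2) and the Vbeta5 mean 86.6 ± 99.3 (SD, n = 2). By title number, Top2a with Vbeta5 differed from control by -5.07 between the arrays numbered 1 and by -2.72 between those numbered 2.

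**Figure D2:**
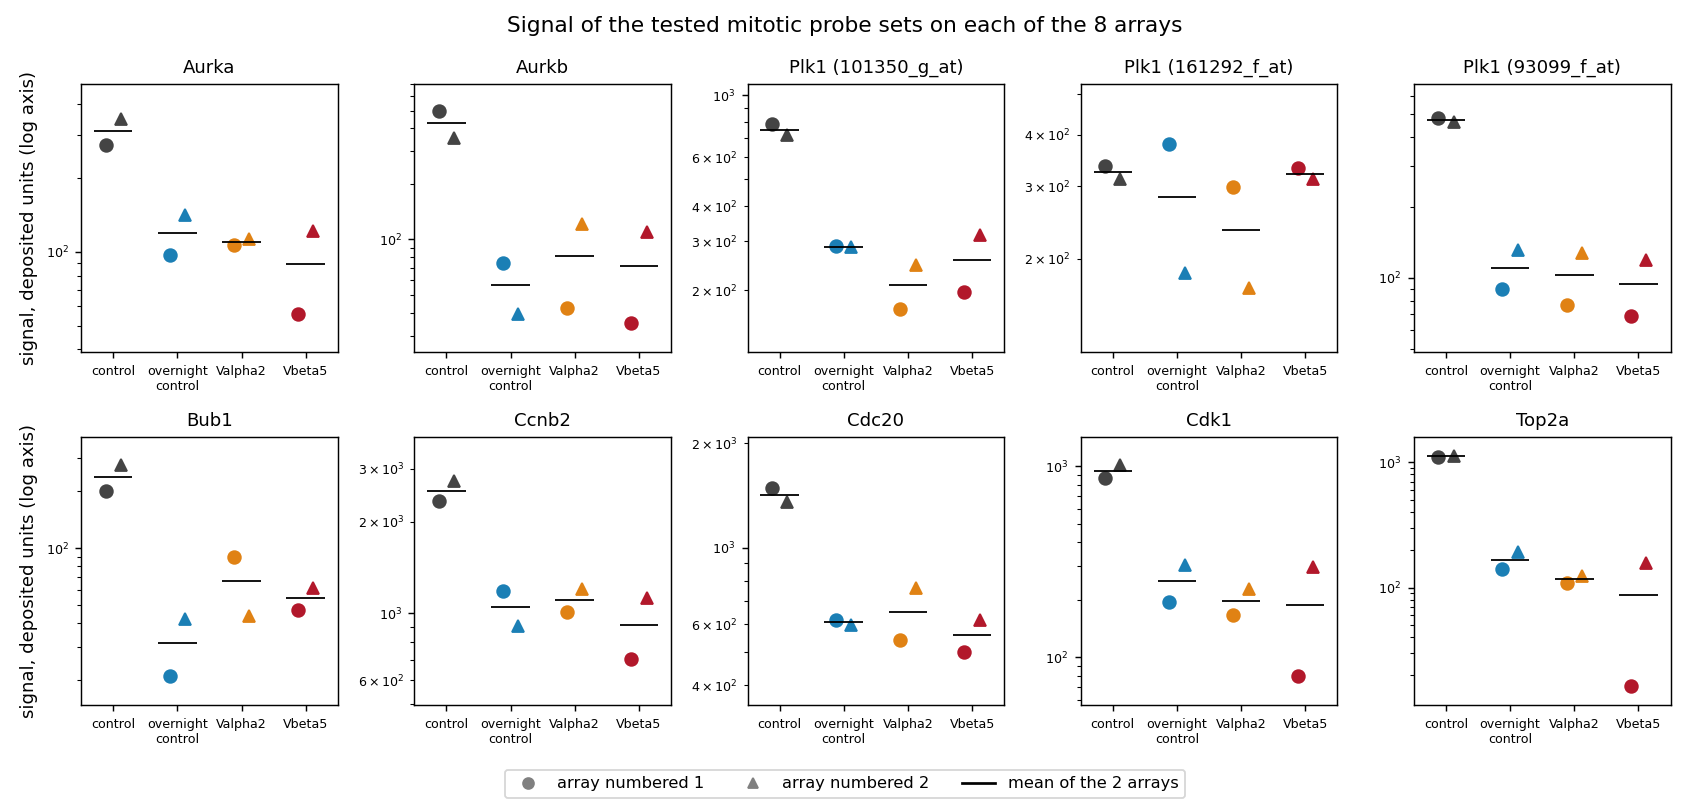
Signal of the 10 tested member probe sets (deposited units, log axis, a scale of its own in each panel) on the 8 arrays by group; circles are arrays numbered 1, triangles arrays numbered 2 and bars the mean of both. In 9 panels both control arrays stand above all 6 others, and in Plk1 161292_f_at they do not.

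The comparison of the overnight control with the control shows how far the members differed without any antibody named in the title. All 10 tested probe sets were lower in the overnight control, 9 of them on both arrays, against 16.3% of all tested probe sets that were lower on both arrays. None passed the test: limma with Benjamini-Hochberg adjustment called 0 of 10, against 0.169% of all tested probe sets called lower and 0.0121% called higher, and 9 of 10 had an unadjusted p under 0.05, against 5% of all tested probe sets in that direction. In those 9 the fold ran from 2.30 to 6.22 and the adjusted p from 0.0805 to 0.331. All 9 of the 95% intervals of the difference, which are unadjusted, lay below 0, which restates the unadjusted p. The median over all 12 member probe sets, 2 of them untested, was -1.31. Over the 10 tested it was -1.61, beside 0.10 for all probe sets tested. Between the arrays numbered 1 the median over the tested members was -1.73 and between those numbered 2 it was -1.62. With 1 array left out, the median over all 12 ran from -1.43 to -1.34. Leaving out the 3 arrays of high 3' to 5' ratio left 1 array in each group but the control. Counts of calls from that fit are therefore not given. The count of 0 depended on other settings as well, as given at the end.

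Against the control, most members fell with Vbeta5. Of 10 tested probe sets 6 fell, standing for 5 genes (Cdk1, Ccnb2, Plk1, Cdc20 and Top2a), against 0.99% of all tested probe sets called lower, and 0 rose, against 0.592% called higher. In 9 of 10 both Vbeta5 arrays lay below both control arrays, against 19% of all tested probe sets. The median over the 12 member probe sets was -1.61 and over the 10 tested -1.77, beside 0.08 for all probe sets tested. The 6 calls became 0 with eBayes without the trend, and fewer were called when any 1 of the 4 arrays was left out. Such a fit has 1 array in a group. Leaving out the 3 arrays of high 3' to 5' ratio leaves 1 array in each group but the control. With Valpha2 against control 1 of 10 fell, Plk1, against 0.362% of all tested probe sets called lower, and 0 rose, against 0.0362%. All 10 were lower on both Valpha2 arrays than on both control arrays, against 16.7% of all tested probe sets. The median over the 12 was -1.51 and over the 10 tested -1.72, beside 0.07 for all probe sets tested. The Plk1 call was lost when any of the 4 arrays was left out. The 3 comparisons with control use the same 2 control arrays, so they are not separate tests of a low signal elsewhere.

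Among the overnight control, Valpha2 and Vbeta5 groups no member differed past the threshold. With Vbeta5 against the overnight control limma called 0 of 10, against 0.616% of all tested probe sets, and 0 had an unadjusted p under 0.05, against 8.48%. The differences ran from -1.26 for Top2a, with a 95% interval of -2.60 to 0.08, to 0.59 for Bub1, with an interval of -0.44 to 1.62. Single arrays decided these sizes: Top2a was at -0.063 without Vbeta5 array 1 and at -2.46 without Vbeta5 array 2, and Bub1 at 0.26 when array 1 of the overnight control was left out and 0.91 when its array 2 was. With Valpha2 against the overnight control 0 of 10 were called, against 0% of all tested probe sets, again with 0 at an unadjusted p under 0.05, against 1.63%, and the range was -0.45 (Plk1 101350_g_at) to 0.77 (Bub1, interval -0.26 to 1.80). That Bub1 difference was 0.36 without Valpha2 array 1, 1.19 without Valpha2 array 2 and 0.45 without overnight control array 1. Without the 3 arrays of high 3' to 5' ratio it was 0.036, from 1 array in each group. The direct comparison of Vbeta5 with Valpha2 also gave 0 of 10, against 0.278%, and 0 at an unadjusted p under 0.05, against 8.19%. There, Top2a differed by -0.82 (interval -2.16 to 0.53) and Bub1 by -0.18 (interval -1.21 to 0.84). Intervals of this width do not show that the groups were alike.

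The 2 arrays of a group did not always lie close. Vbeta5 array 1 was the lowest of all 8 arrays in 7 of the 10 tested probe sets, and Vbeta5 array 2 in 0. How often each array was the lowest over all tested probe sets was not counted. Within the Vbeta5 group the median difference of array 1 minus array 2 over the members was -0.66 on the log2 scale, with 9 of 10 probe sets lower on array 1, where all tested probe sets had a median difference of -0.01. In the Valpha2 group 8 of 10 were lower on array 1 (median -0.33), in the overnight control 5 of 10 (median -0.20) and in the control 5 of 10 (median 0.0017). The medians over all tested probe sets there were 0.03, 0.06 and -0.05. The 3 arrays numbered 1 outside the control group are also those with a high 3' to 5' ratio, and the part of RNA quality in these differences was not tested. With those arrays left out, each of these 3 groups had only its array 2. Between array 2 of Vbeta5 and array 2 of Valpha2, Top2a differed by 0.30 and Bub1 by 0.38, the opposite sign in each case.

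**Figure D3:**
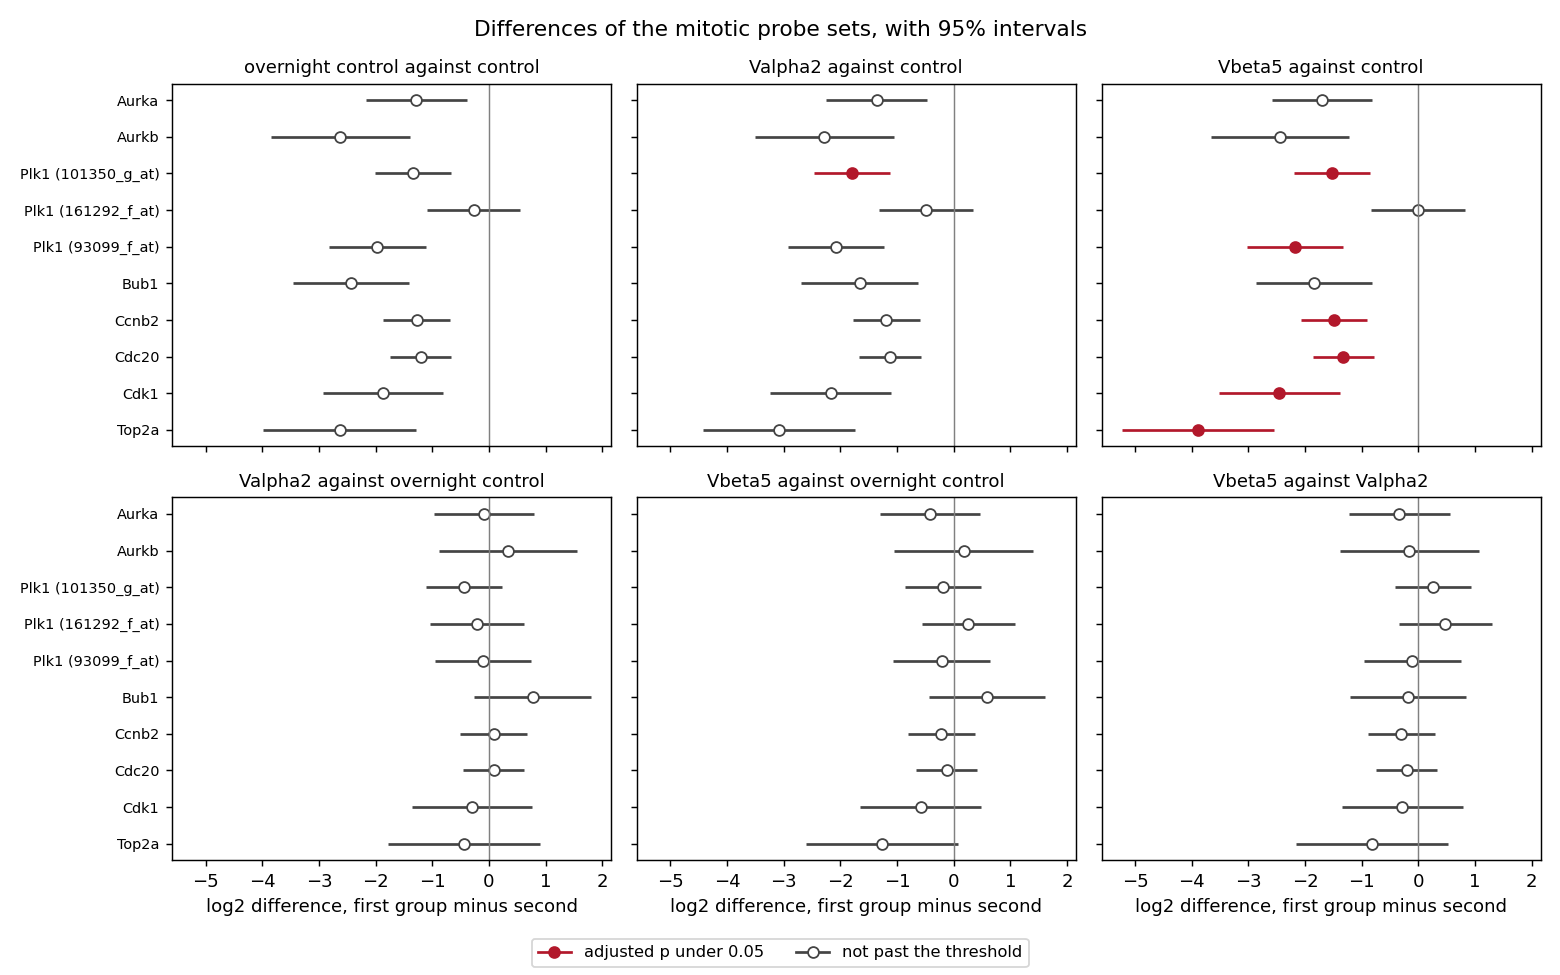
Log2 difference (first group minus second) of the 10 tested member probe sets in the 6 comparisons; points are limma estimates, lines their 95% intervals, and filled points have an adjusted p under 0.05. Filled points appear only against control, 6 with Vbeta5 and 1 with Valpha2, and in the lower row every interval includes 0.

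Other genes of the cell cycle were taken in 4 lists by function. Of 51 tested genes of mitosis, 14 fell with Vbeta5 against control and 0 rose, 7 fell and 0 rose with Valpha2, and 0 were called for the overnight control, against 0.99%, 0.362% and 0.169% of all tested probe sets called lower. The median log2 differences were -1.32, -1.31 and -1.17. The median over all 6095 genes tested was 0.06, 0.06 and 0.08. With Vbeta5 the genes that fell included the spindle gene Nusap1 (-3.09), the spindle motor gene Kif11 (-2.72), the proliferation marker Mki67 (-2.55) and Birc5, a partner of Aurora B in the passenger complex (-2.10), with limma adjusted p-values of 0.0112 to 0.0407 over the 14. With Valpha2 they included Mki67 (-2.21), the mitotic kinesin genes Kif20a (-2.11) and Kif2c (-1.96) and the A-type cyclin gene Ccna2 (-1.74), with limma adjusted p-values of 0.0402 to 0.0493 over the 7. In the overnight control the smallest p-values belonged to Stmn1, which destabilises microtubules, at -1.22 (limma adjusted p = 0.0535), the checkpoint gene Mad2l1 at -2.40 (adjusted p = 0.0535) and the condensin gene Smc2 at -1.65 (adjusted p = 0.0629), with Plk4, the kinase of centriole duplication, between them (adjusted p = 0.0587). The 14 calls with Vbeta5 became 0 without either control array, 1 without Vbeta5 array 1, 7 without Vbeta5 array 2 and 0 without the variance trend, and the 7 with Valpha2 became 0 without any of the 4 arrays and without the trend. For the overnight control the count of 0 also depended on which array was left out. With only the 4 arrays compared, 7 fell in the overnight control, 16 with Valpha2 and 19 with Vbeta5, and 0 rose. With the title number as a block, 15 fell in the overnight control, 17 with Valpha2 and 24 with Vbeta5, where 1 rose.

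Genes of DNA replication act earlier in the cycle. Of 30 tested, 6 fell and 0 rose in the overnight control, 12 fell with Vbeta5 and 10 with Valpha2, each against control, where 0.169%, 0.99% and 0.362% of all tested probe sets were called lower. The median differences were -1.39, -1.25 and -1.36. A difference in calls between the replication and mitotic lists was not tested. In the overnight control the 6 were Rrm2 (-3.48) and Rrm1 (-2.44), the subunits of ribonucleotide reductase, Cdc6 (-2.49), which loads the replicative helicase, and the helicase genes Mcm5 (-2.14), Mcm3 (-1.85) and Mcm4 (-1.58), with limma adjusted p-values of 0.0213 to 0.0465. All 6 calls were lost without either control array, without overnight control array 1 and without the variance trend, and 9 were made without overnight control array 2. The 12 with Vbeta5 became 0 without either control array, 2 without Vbeta5 array 1, 3 without Vbeta5 array 2 and 2 without the trend, and the 10 with Valpha2 became 1 without Valpha2 array 2 and 0 without any other of the 4 arrays or the trend. Of 10 tested genes of G1 control, 1 fell with Vbeta5, the D-type cyclin gene Ccnd3 (-2.15, limma adjusted p = 0.0205), and 0 were called in the other comparisons with control; the medians were -0.40 with Vbeta5, -0.62 with Valpha2 and -0.56 in the overnight control. Of 6 tested genes of Cdk inhibitors, 1 fell with Vbeta5, Cdkn2c (-1.78, limma adjusted p = 0.0205), and 0 rose in any comparison with control. In the 3 comparisons that leave out the control group, 0 genes of any of these 4 lists were called. Among the genes closest to the threshold, Kif23, a kinesin of cytokinesis, differed by -1.37 between Vbeta5 and Valpha2 (limma adjusted p = 0.0896), and Orc1, a subunit of the origin recognition complex, differed by -1.93 between Vbeta5 and the overnight control (limma adjusted p = 0.0769). Against control, Orc1 differed by 1.20 in the overnight control and by -0.74 with Vbeta5 (limma adjusted p = 0.394 and 0.559). In the overnight control 27 of the 30 replication genes went the other way.

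**Figure D4:**
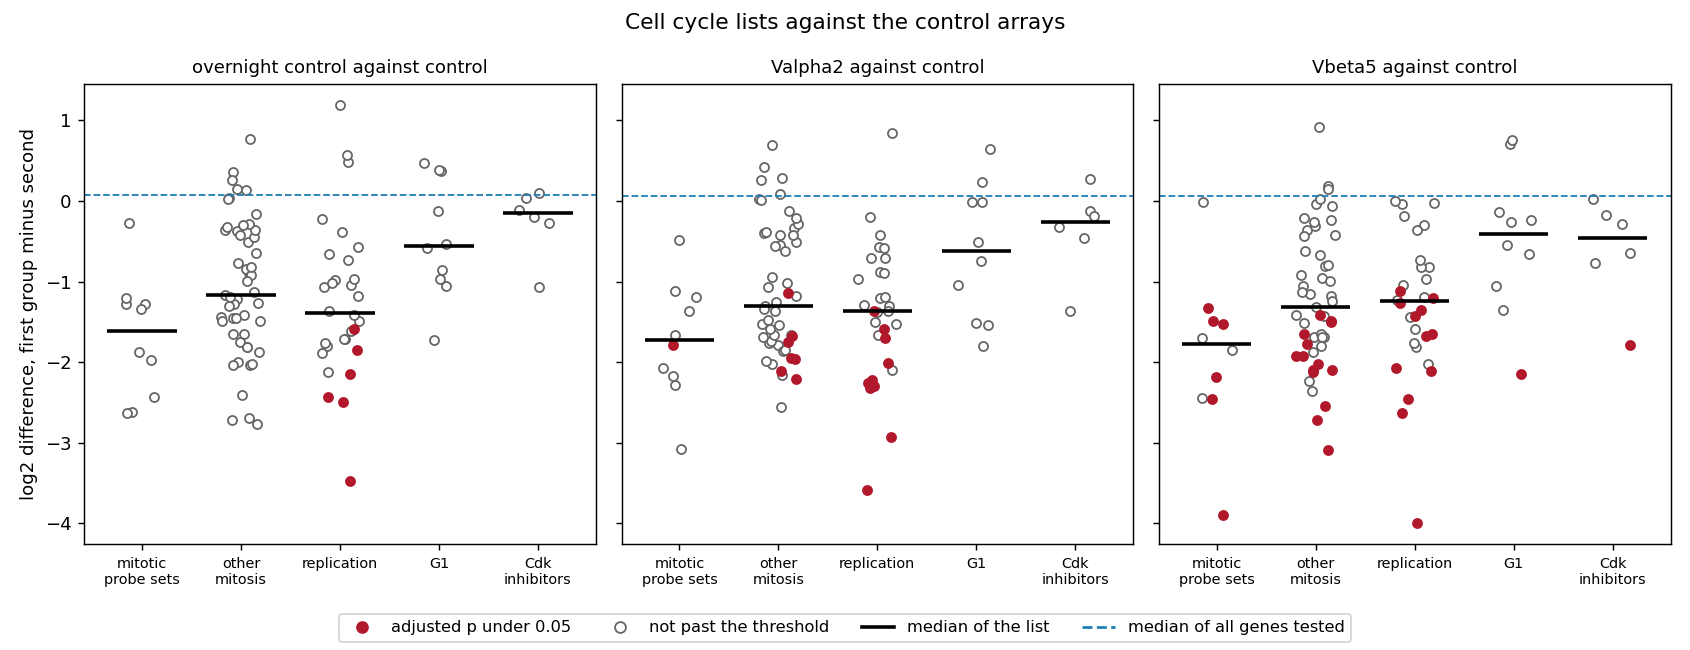
Log2 difference against control of the tested member probe sets and of 4 lists of cell cycle genes (1 probe set per gene) in the overnight control, Valpha2 and Vbeta5; filled points have an adjusted p under 0.05, thick bars are list medians and the dashed line is the median of all 6095 genes. The members and the mitotic and replication lists have medians between -1.77 and -1.17, and the G1 and Cdk inhibitor lists between -0.62 and -0.15.

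The genes whose signal ran most like the mean profile of the 8 measured members over the 8 arrays were Mki67 (Pearson r = 0.994), the Cdk-binding gene Cks2 (0.987), Tacc3 of the spindle (0.987), Pclaf, a PCNA-binding factor (0.985), Pa2g4 (0.982) and Kif20a (0.981), of 7361 probe sets ranked. Mki67 had 1094.6 and 1288.6 in control, 247.5 and 312.3 in the overnight control, 208 and 283.5 with Valpha2, and 122.8 and 287.8 with Vbeta5, with Vbeta5 array 1 again the lowest. Those with the most opposite course were Capzb (r = -0.954), Cav3 (-0.950) and Galm (-0.941), all dim, with signals of 10.2 to 96.8. With 8 points that fall into a high pair and 6 low arrays, these correlations describe the contrast with control and little else.

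Summed markers of other cell types differed between some of the groups. The summed signal of 8 markers of early thymic progenitors and double negative cells, among which cycling cells are common, was 1005 to 1120 in control, 994.1 to 1153 in the overnight control, 1058 to 1129 with Valpha2 and 724.5 to 853.9 with Vbeta5. The lower Vbeta5 sum lay in Notch1, at 598.1 and 640.3 in control and 323.3 and 288.2 with Vbeta5. The other 7 markers summed to 522 and 365.1 in control and to 530.6 and 436.3 with Vbeta5, and overlapped. The summed signal of 6 B cell markers was 331.4 to 526.7 in control and 573.6 to 932.5 on the other arrays, and that of 7 macrophage and monocyte markers 373.6 to 401.3 and 456.8 to 968.6. Of 7 granulocyte markers the sum was 184.2 to 247.4 in control and 277.4 to 759.3 elsewhere. None of the markers of early progenitors, B cells or granulocytes was under the offset on all 8 arrays, and 1 of the macrophage markers was. Many were dim: the filter on dim probe sets passed 5 of the 6 B cell, 4 of the 7 macrophage and 4 of the 7 granulocyte markers. The highest of these sums, 932.5, 968.6 and 759.3, were all on overnight control array 1, which had the highest median signal, 110.25. The part of array background in these sums was not tested. The sum of 7 markers of dendritic cells and MHC class II was 650 to 680.2 in control and 1099 to 1254 with Vbeta5, and lay at 494.9 to 1410 in the overnight control and 566.8 to 653.7 with Valpha2. For 7 fibroblast and endothelial markers it was 816.4 to 886.9 in control, 624.8 to 1913 in the overnight control, 902 to 943.9 with Valpha2 and 894.2 to 1280 with Vbeta5. The sums of 4 erythroid (201.2 to 511.2) and 6 thymic epithelial (93.7 to 276.5) markers overlapped between control and each other group, and no marker of these lists was under the offset on all 8 arrays. The part of these cells in the mitotic differences was not tested.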

How the data were processed

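The authors deposited 1 table of signal intensity for 12488 probe sets on 8 arrays, which the labels call normalized without naming a method or software. The intensity is linear with 1 decimal, and the mean after trimming 2% at each end was nearly equal between arrays. Control probe sets (66) were left out, log2(signal + 16.6) was taken, 16.6 being the 20th percentile of the positive values, and the dimmest 33.3% by mean were left out, leaving 8282 for the test. Fold changes on this scale understate those of dim probe sets. No detection calls were used; precision is limited by having 2 arrays a group.

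Gene symbols came from the platform annotation and were brought up to date by gene identifier against RefSeq (GRCm38.p6): 10833 had 1 symbol, 396 several and 1193 none. limma 3.58.1 in R 4.3.3 fitted 1 mean per group to the 8 arrays, with eBayes moderation that lets the variance follow the mean signal (residual degrees of freedom 4, prior 6.326), two-sided with Benjamini-Hochberg adjustment over all tested probe sets in a comparison and a threshold of 0.05. The fit was tested on simulated data. An exact permutation test of 2 against 2 arrays cannot reach 0.05, so none was run. Lists used each gene's brightest tested probe set. All members are described; from each list the text draws on the called genes (up to 8 by size) or the 4 smallest p-values. The genes, lists and the setting without 3 arrays were chosen with earlier results of these data known. Alternatives were other normalizations, offsets, filters and variance models, a replicate block, subsets of arrays and other ways to combine probe sets. A fit without 1 array leaves 1 array in that group, so its count of calls rests on the spread within the other groups. The fit without 3 arrays takes its residual spread from the 2 control arrays alone.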

Additional observations from a re-analysis of the deposited data

How the results depend on the processing

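In the 3 comparisons with control, all 9 member probe sets other than Plk1 161292_f_at stayed lower under all 125 combinations of probe set and alternative per comparison. In these 9 both control arrays lay above every other array, so leaving arrays out could not turn the sign. Changes of filter, variance model or block leave the difference itself as it was. The 125 are therefore no separate support for the direction. The number called depended on the setting. For the overnight control the count of 0 became 3 with only the 4 arrays compared. It also rose above 0 in a fit with 1 array left out. For Vbeta5 the count of 6 became 0 without the variance trend and 0 to 3 with 1 array left out. For Valpha2 the count of 1 became 0 with quantile normalization, a common median, a floor, no filter, no variance trend or 1 array left out, 4 with only the 4 arrays compared and 5 without the 3 arrays; the causes were not tested. Calls in the mitosis and replication lists depended on the setting as well: with quantile normalization they were 1 and 3 for the overnight control, 12 and 11 for Vbeta5 and 1 and 3 for Valpha2. With only the 4 arrays compared, the calls in the replication list were 6 for the overnight control, 17 for Vbeta5 and 12 for Valpha2.

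The title numbers are not known to pair the arrays. The differences between the 2 arrays of a group correlated weakly between groups (r = 0.105 to 0.345 over the 6 pairs of groups). The part of RNA quality in these correlations was not tested. With the replicate block 8 members were called for the overnight control, 6 for Valpha2 and 8 for Vbeta5 against control, and 0 in the other comparisons.

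The median over all member probe sets moved to -1.61 (overnight control) and -1.72 (Valpha2) with the brightest probe set per gene, and for Valpha2 to -1.68 with a floor. With 1 array left out it was -1.43 to -1.34 for the overnight control, -1.92 to -1.22 for Vbeta5 and -1.62 to -1.32 for Valpha2. A common median moved the median of all tested probe sets from 0.08 to -0.12 for Vbeta5 and from 0.10 to -0.13 for the overnight control against control, and that of the tested members from -1.77 to -1.97 and from -1.61 to -1.83.

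Signs turned for some small differences with 1 array left out. Plk1 161292_f_at ranged from -0.76 to 0.22 for the overnight control against control (0.22 without overnight control array 2) and from -0.059 to 0.039 for Vbeta5 (0.032 without Vbeta5 array 2, 0.039 without control array 1). Between Vbeta5 and Valpha2, Bub1 ranged from -0.60 to 0.23 (0.23 without Valpha2 array 1) and Top2a from -2.01 to 0.38 (0.38 without Vbeta5 array 1). Without the 3 arrays they were 0.38 and 0.30, from 1 array in each group. No detection calls were used, so what a dim signal holds above background is not known.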
